A study of Mus musculus with 6 samples.

Results

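Transcripts of 10 factors of the caudal embryo and of the somites were measured in heads of E8.5 mouse embryos that lacked the histone demethylase Jarid1b (Kdm5b) and in heads of heterozygous controls of the same stage. The 10 genes are Cdx1, Cdx2, Cdx4, Tbx6, Msgn1, Mesp2, Meox1, Meox2, Tcf15 and Uncx. They were taken from the array by symbol, using probe sets annotated to 1 gene and no other. All 10 of 10 had such a probe set, a single one each, among 21789 probe sets of this kind (19938 genes) and 35556 rows in all. There were 3 pools of Jarid1b heterozygote heads and 3 pools of Jarid1b knockout heads, each of 4 heads, on a C57BL/6 background. The mice go back to a line with a loxP-flanked Jarid1b exon that was crossed to Cmv-cre mice, which delete in all tissues, and heterozygotes were then intercrossed. Every embryo, the controls included, therefore carried a deleted allele, and no wild-type pool was analysed here. The somite numbers and litters of these embryos are not given in the sources used here. Values are log2 of the deposited array intensities, and a log2 fold change is knockout minus heterozygote.

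The body axis of the mouse is laid down from head to tail. Cells leave the primitive streak and tail bud, where Cdx homeobox factors are active and turn on the more posterior Hox genes, and enter the presomitic mesoderm, which is specified by the T-box factor Tbx6 and the basic helix-loop-helix factor Msgn1. A clock of Notch, Wnt and FGF signals runs there, and Mesp2 sets the position of each new segment boundary. The segments become somites, which express Tcf15 (paraxis), Meox1, Meox2 and Uncx and give rise to vertebrae, ribs and trunk muscle. None of these steps takes place in the forebrain or midbrain. Transcripts of these genes in a dissected head were therefore read for tissue from behind the midbrain. The hindbrain is counted with the head here, so a signal of these genes need not come from the trunk.

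RefSeq promoters (GRCm38.p6) were available for 7 of the 10 genes, Cdx2, Cdx4, Tbx6, Msgn1, Mesp2, Meox2 and Uncx, and not for Cdx1, Meox1 and Tcf15. Those of 3 genes are printed, as the 250 bases before the start, 5′ to 3′ on the strand of the gene. Tbx6 (chr7:126781233-126781482, plus strand) is shown because it had the largest difference between genotypes among the 10, Msgn1 (chr12:11208949-11209198, minus strand) because it is the other presomitic factor and lay on the opposite side of 0, and Uncx (chr5:139543648-139543897, plus strand) because its promoter was the richest in CG pairs of the 7. Capitals mark matches, on either strand, to a T-box half-site (GGTGTNA), a Cdx site (TTTATNG), a TCF/LEF site (CTTTGAN) or a TATA box (TATAAA).
Tbx6: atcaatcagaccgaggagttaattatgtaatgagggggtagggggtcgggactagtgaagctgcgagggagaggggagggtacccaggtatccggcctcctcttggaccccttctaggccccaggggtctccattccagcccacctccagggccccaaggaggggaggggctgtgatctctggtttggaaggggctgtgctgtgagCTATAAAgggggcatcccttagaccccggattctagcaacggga
Msgn1: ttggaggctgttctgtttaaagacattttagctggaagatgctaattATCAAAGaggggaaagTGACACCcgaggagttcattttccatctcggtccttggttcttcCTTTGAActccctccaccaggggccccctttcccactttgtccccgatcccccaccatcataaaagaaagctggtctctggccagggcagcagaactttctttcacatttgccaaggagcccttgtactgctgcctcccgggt
Uncx: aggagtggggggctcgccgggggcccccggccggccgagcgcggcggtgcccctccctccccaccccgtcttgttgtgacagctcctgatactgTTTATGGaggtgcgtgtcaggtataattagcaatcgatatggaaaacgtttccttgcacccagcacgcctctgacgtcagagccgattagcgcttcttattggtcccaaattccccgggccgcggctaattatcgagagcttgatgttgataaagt
The Tbx6 promoter held a TATA box from base -43 to -38 before the start, and the Cdx match from -44 to -38 on the other strand overlaps it. Msgn1 held 2 TCF/LEF matches and 1 T-box match, and Uncx held 1 Cdx match. Of 32536 promoters of this length, 8.62% held the T-box letters, 9.74% the Cdx letters, 13.9% the TCF/LEF letters and 12.3% the TATA box. These matches describe the letters and do not show that a factor binds there. H3K4me3, the mark that Jarid1b removes, lies mostly at CG-rich promoters. The ratio of observed to expected CG pairs was 0.938 for Uncx (20 pairs), 0.690 for Cdx2, 0.503 for Meox2, 0.389 for Mesp2, 0.344 for Cdx4, 0.281 for Tbx6 and 0.2525 for Msgn1 (4 pairs), against a median of 0.378 over all promoters. Tbx6 thus lay below the median promoter by this ratio, and Uncx lay above 90.8% of promoters.

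As a check of the labels, Jarid1b lay between 9.12 and 9.17 in the heterozygote pools and between 7.47 and 7.71 in the knockout pools, and it was the only one of the 21789 probe sets at an adjusted p under 0.05 in limma (0.00459% of those tested, adjusted p = 6.29e-04). Of the head genes, Otx2 of the forebrain and midbrain lay at 9.85 or more and Egr2 of the hindbrain between 9.16 and 9.57, while Six6 of the optic field (5.39 to 5.98) and Msc of the head muscle (5.02 to 5.38) were dimmer. Heart genes were bright as well, with Myl7 between 12.03 and 12.25, and so were genes of the yolk sac endoderm. Single pools stood apart in the signal of the primitive blood genes or of the yolk sac endoderm genes. The summed intensity of 6 primitive blood genes reached 1816 in the second knockout pool, against 238 to 480 in the other 5 pools. Of the 6, 4 were highest in that pool, among them the globin Hba-x at 10.09, against 6.18 to 7.78 elsewhere. Alas2 was at 5.99 there, against 6.35 in heterozygote replicate 1. The summed intensity of 9 yolk sac endoderm genes was 3697 in the third knockout pool, against 7107 to 8336 elsewhere. No 2 arrays held identical values.

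The members differed widely in signal, from Meox1 above 8 to Cdx4 below 3. An array gives every probe set some signal, so the members were set beside 14 measured genes of late or adult specialised cells, such as the sperm protein Prm2, the casein Csn2 and the surfactant protein Sftpc. These 14 genes lay between 2.94 and 5.99. Probe sets differ in how strongly they bind, so this range is a guide to signal without an expected transcript and not a threshold for any one gene. Of the 10 members, Meox1, Tcf15 and Cdx1 lay above 5.99 in 6 of 6 pools, Cdx1 by little, with a lowest value of 6.03. Uncx did so in 4 of 6. Cdx2, Tbx6, Msgn1, Mesp2 and Meox2 lay inside the range in every pool, and Cdx4 lay below it, between 2.59 and 2.92. Since levels of unlike probe sets cannot be compared, these positions do not show which transcripts were present or absent.

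**Figure D1:**
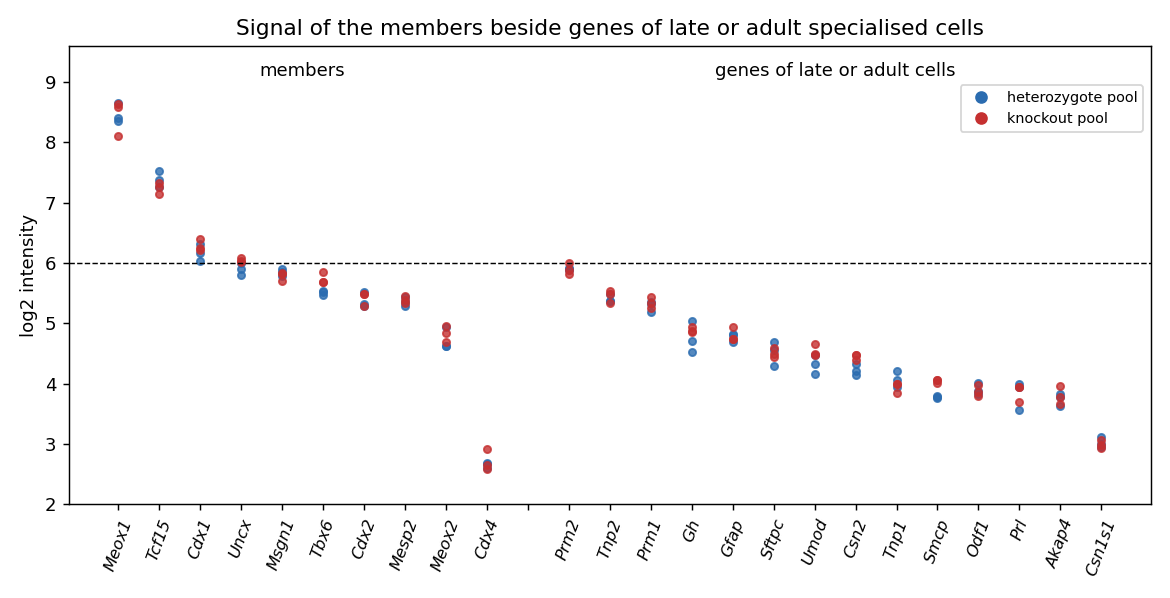
Log2 intensity (y axis) of each of the 10 members and of 14 genes of late or adult specialised cells (x axis), 1 point per pool, heterozygote pools in blue and knockout pools in red, with a dashed line at the highest value of the 14 genes, 5.99. Meox1, Tcf15 and Cdx1 lie above the line in every pool, while Cdx2, Cdx4, Tbx6, Msgn1, Mesp2 and Meox2 lie below it.

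The 3 Cdx genes, caudal homeobox factors that pass posterior identity on to the Hox clusters, showed no ordered difference between the genotypes. Cdx1, the member of the family that reaches furthest forward, was at 6.32, 6.03 and 6.17 in heterozygote replicates 1 to 3 and at 6.25, 6.40 and 6.22 in knockout replicates 1 to 3. The groups overlapped, and the log2 fold change was 0.12 with a standard error of 0.09 (limma, adjusted p = 0.656), or 0.045 without heterozygote replicate 2 and 0.19 without heterozygote replicate 1. Cdx2, a regulator of trophectoderm in the blastocyst and of the tail bud later, was at 5.33, 5.51 and 5.29 in heterozygotes and at 5.29, 5.49 and 5.49 in knockouts. Its lowest values came from 1 pool of each genotype, and its log2 fold change was 0.05 with a standard error of 0.09. Cdx4 was at 2.61, 2.68 and 2.67 in heterozygotes and at 2.92, 2.59 and 2.66 in knockouts, where the single higher value, in knockout replicate 1, still lay below all 14 genes of late cells.

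Among the presomitic factors, Tbx6 had its 3 highest values in the 3 knockout pools. Its log2 intensity was 5.54, 5.47 and 5.52 in heterozygotes and 5.85, 5.68 and 5.68 in knockouts. The means were 5.51 ± 0.04 (SD, n = 3 pools) and 5.74 ± 0.10 (SD, n = 3), a difference of 0.23 or 1.17-fold with a 95% confidence interval from 0.08 to 0.38. This had an unadjusted p under 0.05 and did not pass after adjustment over all probe sets (limma, adjusted p = 0.391). Tbx6 was the only member of the 10 with an unadjusted p under 0.05 on the higher side, where 5.97% of all probe sets lay, and none had one on the lower side, where 4.66% lay. Among the 7263 probe sets of middle brightness, to which Tbx6 belongs, the share on the higher side was 6.72%, and groups did not overlap on that side for 8.99%. Of the 14 genes of late or adult cells, 3 were also on the higher side at an unadjusted p under 0.05. They were the sperm gene Smcp with a log2 fold change of 0.27, the casein Csn2 with 0.22 and the kidney gene Umod with 0.22. These 3 are among the 7263 dimmest probe sets, of which 761 were on the higher side at an unadjusted p under 0.05. Tbx6 is at brightness percentile 38.2, and its signal lay inside the range of the 14 genes in every pool. Only 1 of the 14 had a higher mean signal than Tbx6.

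Msgn1 and Mesp2, which act in the same tissue as Tbx6, had smaller differences and overlapping groups. Msgn1, needed for cells to leave the streak and become presomitic, was at 5.91, 5.79 and 5.86 in heterozygotes and at 5.83, 5.71 and 5.82 in knockouts, and its log2 fold change was -0.07. The 95% interval, from -0.21 to 0.07, was the narrowest of the 10. Mesp2, the boundary factor, was at 5.28, 5.44 and 5.36 in heterozygotes and at 5.46, 5.38 and 5.34 in knockouts, with a log2 fold change of 0.04 and a standard error of 0.06.

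The somite factors held the brightest member, Meox1, which also varied most among the knockout pools. Among the heterozygote pools Meox2 varied more, with an SD of 0.19 against 0.16 for Meox1. Meox1, a homeobox factor of the early somite, was at 8.66, 8.40 and 8.36 in heterozygotes and at 8.10, 8.59 and 8.63 in knockouts. It was lowest and nearly highest in pools of the same genotype, so the means of 8.47 ± 0.16 (SD, n = 3) and 8.44 ± 0.29 (SD, n = 3) hardly differed. They differed by -0.03 on the log2 scale, with an interval at 95% confidence from -0.37 to 0.31 (limma, adjusted p = 0.958), and by 0.14 without knockout replicate 1. Tcf15, which is needed for somites to become epithelial, was at 7.53, 7.38 and 7.26 in heterozygotes and at 7.14, 7.27 and 7.33 in knockouts. Its lowest value was also in knockout replicate 1, and its log2 fold change was -0.14 with a standard error of 0.09 (limma, adjusted p = 0.582). Meox2, the paralog of Meox1 with a later role in limb muscle, was at 4.94, 4.62 and 4.62 in heterozygotes and at 4.69, 4.96 and 4.84 in knockouts, so that its groups overlapped. Its log2 fold change was 0.10 with a standard error of 0.11, and 0.21 without heterozygote replicate 1. Uncx, a homeobox factor of the posterior part of each somite, was at 5.79, 5.91 and 6.01 in heterozygotes and at 6.09, 6.04 and 6.02 in knockouts. The groups did not overlap, although the nearest values were 6.01 and 6.02, and the means differed by 0.15, with an interval at 95% confidence from -0.01 to 0.30 (limma, adjusted p = 0.485).

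**Figure D2:**
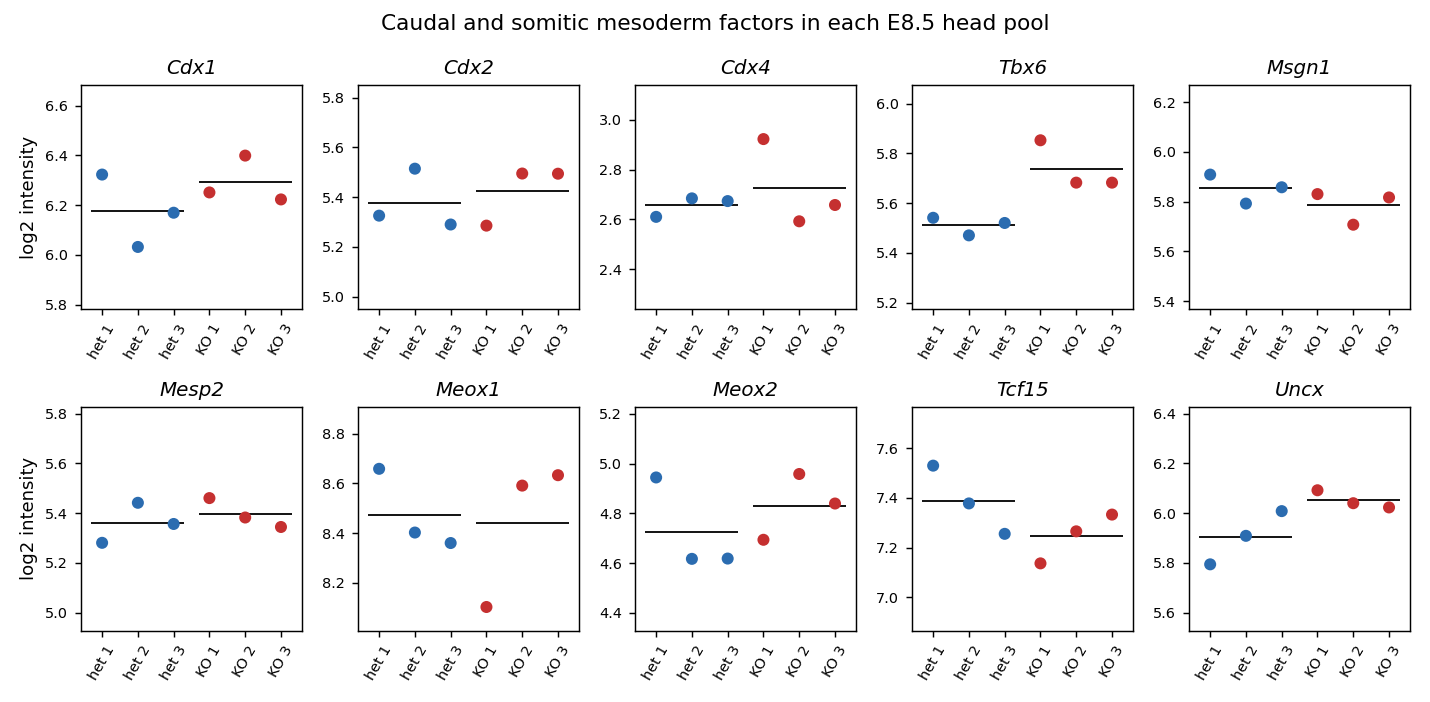
Log2 intensity (y axis) of each of the 10 members in the 3 heterozygote pools (blue) and the 3 knockout pools (red), the means of the 3 pools being drawn as black lines; all panels span the same range of log2 units around their own mean. The groups do not overlap for Tbx6 and Uncx, and Meox1 drops to 8.10 in knockout replicate 1.

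No gene of the 10 had an adjusted p under 0.05 (limma), the smallest adjusted p being 0.391 for Tbx6 and the largest 0.958 for Meox1. There were 7 positive and 3 negative log2 fold changes, where 49.7% of all probe sets were positive. Their median was 0.06 against -0.00072 over all 21789 probe sets. It became 0.02 after quantile normalization and 0.12 without knockout replicate 1. Over all probe sets, the sign varied with brightness. Of the 7263 dimmest, 5052 were positive (median 0.06). The number was 3620 of the 7263 of middle brightness (median -0.00037) and 2161 of the 7263 brightest (median -0.04). Of the 10 members, only Cdx4 and Meox2 were among the dimmest. Mesp2 and Cdx2, at brightness percentiles 34.1 and 34.5, lay just above these. Without dim probe sets, the members left had a median of 0.04, against -0.02 over the 14526 probe sets left. The part of brightness in the 7 positive values was not tested. Groups did not overlap on the higher side for 2 of the 10, Tbx6 and Uncx, where 8.03% of all probe sets did so, and on the lower side for none, where 9.03% did so. No member reached the 2-fold change that the methods set as a threshold. The 95% confidence intervals reached 1.30-fold at most in either direction, for Tbx6 upwards and for Meox1 downwards. A missed threshold does not show equal levels, and each interval holds 0 or small differences but no 2-fold change of signal. For 1 gene alone, exact permutation of 3 pools against 3 gives no p below 0.1. The limma intervals combine the spread of each probe set with the spread over all probe sets.

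**Figure D3:**
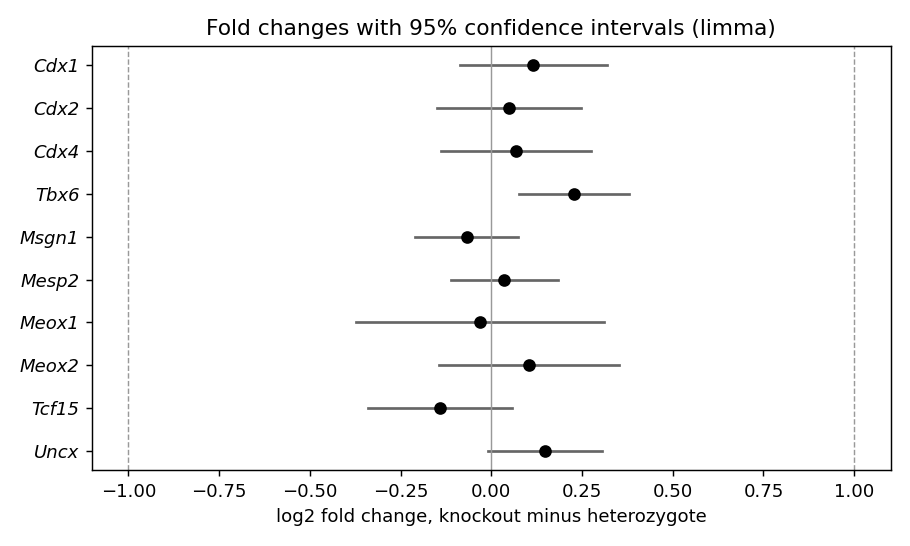
Log2 fold change (x axis, knockout minus heterozygote) of each member (y axis) with its 95% confidence interval; a change of 2-fold is marked by dashed lines. The interval of Tbx6, from 0.08 to 0.38, is the only one that does not reach 0, and all of them lie well inside the dashed lines.

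Because the members are read for tissue from behind the midbrain, their values were also compared between single pools. No pool was high or low in all of them, and the counts that follow also take in the 6 members that lay at or below the range of the late genes in every pool. Knockout replicate 1 held the highest value for 4 members (Cdx4, Tbx6, Mesp2 and Uncx) and the lowest for 3 (Cdx2, Meox1 and Tcf15), and heterozygote replicate 1 held the highest for 3 and the lowest for 2. The median deviation of the 10 members from their 6-pool means ran from -0.06 in heterozygote replicate 3 to 0.06 in knockout replicate 2. The members that lay above the genes of late cells in every pool did not order the pools alike, since Cdx1 was lowest in heterozygote replicate 2 while Meox1 and Tcf15 were lowest in knockout replicate 1.

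Meox1 had the widest range of the 10 over the pools, 0.56 on the log2 scale, and this came mostly from knockout replicate 1. There it lay 0.43 below the mean of the other 5 pools, or 1.34-fold, and 0.26 below the next lowest pool. A gap of that size or more between this pool and the next lowest one was found for 131 of the 21789 probe sets, or 0.601%. Among listed genes these were Osr1 and Foxf1, factors of lateral and intermediate mesoderm, Hoxb5, which marks the trunk level, and the heart factor Tbx5, at gaps from 0.31 to 0.37, against 0.14 for Aldh1a2. These were picked out after their values were seen. Osr1 was at 7.15, 7.03 and 6.94 in heterozygotes and at 6.57, 7.09 and 7.05 in knockouts. Aldh1a2, the enzyme that makes retinoic acid in trunk mesoderm, was at 7.44, 7.12 and 7.33 in heterozygotes and at 6.98, 7.37 and 7.38 in knockouts. In Meox1, Osr1, Aldh1a2 and Tbx5, knockout replicates 2 and 3 lay in the range of the heterozygotes. Foxf1 was at 8.60 and 8.30 in knockout replicates 2 and 3, against 8.41 to 8.45 in heterozygotes. Hoxb5 was at 6.10 and 5.81 in these pools, against 5.76 to 5.95 in heterozygotes. Of 72 measured trunk genes, 11 (15.3%) were lowest in knockout replicate 1 and 14 (19.4%) were highest there. Over all probe sets these shares were 17.9% and 18.6%. Of the 72, 23 were among the dimmest probe sets, and some others, such as Hes1 and Pax1, are expressed in head tissue too. The shares therefore cannot show whether this pool held less trunk tissue. In RNA from whole heads, fewer cells of a type and less RNA per cell cannot be told apart. Neither the blood genes nor the yolk sac genes stood apart in knockout replicate 1, at summed intensities of 323 and 8213. The summed intensity of the 9 heart genes was lowest in this pool, at 16089 against 16142 to 17381 elsewhere. Of these 9 genes, 4 were lowest in it. The part of blood, yolk sac, heart or somite number in these values was not tested.

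By the smallest root mean square difference of the pool deviations, the 5 genes most like Meox1 over the 6 pools were Rmi2, Gm10390, Bmp8b, Wdfy4 and Ankrd35, at 0.05 to 0.06 on the log2 scale. With 6 values per gene and 21789 probe sets to choose from, close matches are easily found, and none of the 5 is on a list used here. The nearest listed genes were Osr1, at 0.07, and Aldh1a2, at 0.09.

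**Figure D4:**
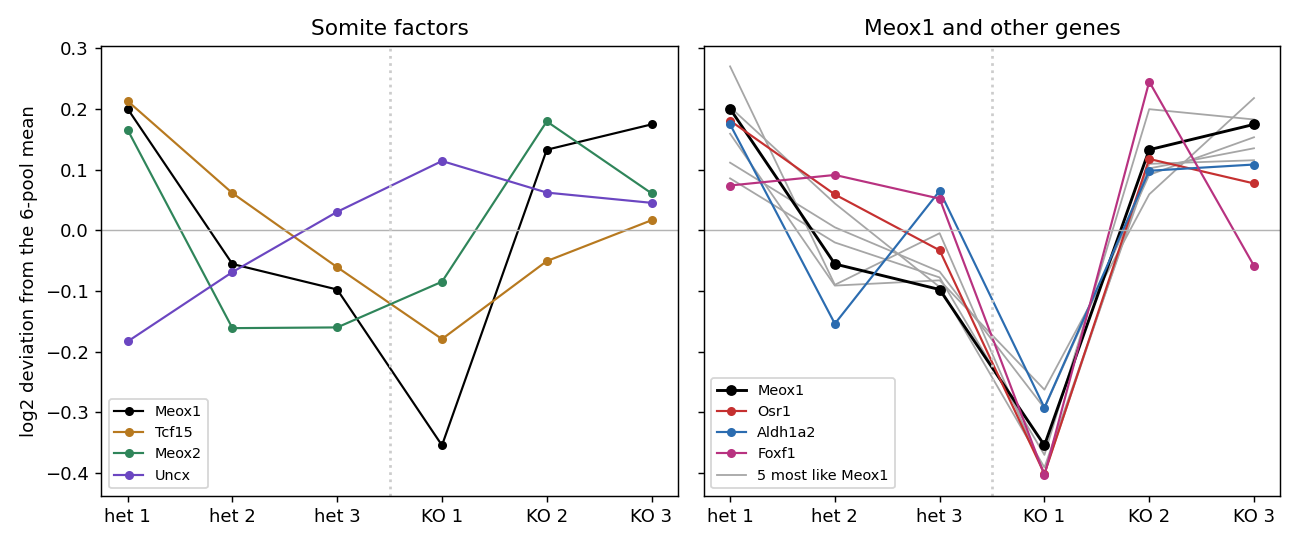
Log2 deviation of each gene from its own 6-pool mean (y axis) in the 6 pools (x axis), for the 4 somite factors (left) and for Meox1 with Osr1, Aldh1a2, Foxf1 and the 5 genes most like it (gray, right); lines only join the points of a gene. Meox1 is low in knockout replicate 1, and Uncx has its highest value there.

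The wider set of trunk genes also held no gene that passed the test. Of 75 listed genes of the tail bud, the segmentation clock, the somite compartments, the trunk Hox groups, the lateral and intermediate mesoderm and the node or notochord, 72 were measured. No adjusted p was under 0.05 (limma). Of the 72, 6 were on the higher side with an unadjusted p under 0.05 and 1 on the lower, beside 5.97% and 4.66% of all probe sets, and the median log2 fold change was 0.02. The higher ones were Wnt3a, a ligand of the tail bud, Pcdh8, a protocadherin of the forming somite, Pax1 and Nkx3-2, factors of the sclerotome, and Hoxb9 and Hoxc6. The lower one was Hes1, a Notch target also used by neural progenitors, at a log2 fold change of -0.20. Wnt3a had the largest difference of the 72. It was at 5.83, 5.78 and 5.72 in heterozygotes and at 6.11, 5.99 and 6.21 in knockouts, a difference of 0.33 (standard error 0.07, limma adjusted p = 0.356). Wnt3a is also used along the dorsal neural tube, so its signal in a head need not come from the tail bud. Pax1 was at 6.01, 6.11 and 6.00 in heterozygotes and at 6.40, 6.45 and 6.15 in knockouts, a log2 fold change of 0.29, and it is expressed in the pharyngeal pouches of the head too. Hoxc6 had a log2 fold change of 0.26, Hoxb9 of 0.19, Nkx3-2 of 0.18 and Pcdh8 of 0.16, with no adjusted p under 0.05. The first 3 of these are among the 7263 dimmest probe sets, of which 761 were on the higher side and 114 on the lower.

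The targets and neighbors of the members, differed from list to list in their balance of positive and negative values. The 15 tail bud and streak genes had a median log2 fold change of -0.01, with 7 positive and 8 negative, and 0.02 without knockout replicate 2. The 14 genes of the clock and of segment formation, among them the Notch ligands Dll1 and Dll3, had a median of -0.03 with 5 positive and 9 negative. It was -0.08 without dim probe sets and -0.0025 without knockout replicate 3. The 17 somite compartment genes had a median of 0.05 with 14 positive and 3 negative. This median was 0.13 without knockout replicate 1 and 0.025 without dim probe sets, and 6 of the 17 were among the 7263 dimmest. The 14 Hox genes of groups 5 to 9, which lie downstream of the Cdx factors, had a median of 0.08 with 11 positive and 3 negative, and 11 of the 14 were among the 7263 dimmest probe sets. These dim probe sets had a median of 0.06 themselves. After quantile normalization, the Hox median was 0.03. The 14 genes of late or adult cells had a median of 0.04. The lateral and intermediate mesoderm genes ranged from -0.27 for Hand1 to 0.17 for Tbx4 and the node and notochord genes from -0.11 for Foxa2 to 0.05 for Chrd, with none at an unadjusted p under 0.05 in either list.

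**Figure D5:**
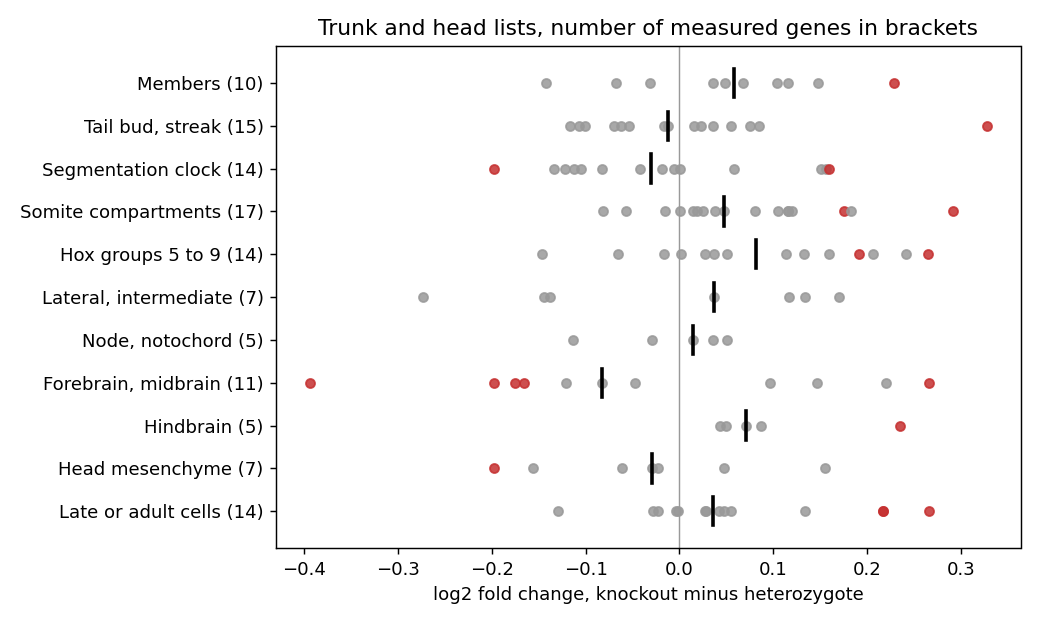
Log2 fold change (x axis, knockout minus heterozygote) of each measured gene of the members, of 6 trunk lists, 3 head lists and the genes of late or adult cells (y axis), with a black line at the median of each list and red points at an unadjusted p under 0.05. The medians lie between -0.08 for the forebrain and midbrain list and 0.08 for the Hox list.

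Head genes were compared in the same way, since more tissue from behind the head would leave a smaller share to them. Of 27 listed, 23 were measured. At an unadjusted p under 0.05, 2 were higher, Egr2 of the hindbrain at a log2 fold change of 0.24 and Six6 of the optic field at 0.27. On the lower side were 5, the forebrain and eye factors Hesx1 (-0.39), Rax (-0.20), Fezf1 (-0.18) and Six3 (-0.17) and the head mesoderm factor Tcf21 (-0.20). Over all probe sets 5.97% were on the higher side and 4.66% on the lower. Hesx1 and Fezf1 are among the 7263 brightest probe sets, where 52 were higher and 487 lower, and Rax, Six3 and Tcf21 among the 7263 of middle brightness, where 488 were higher and 415 lower. No adjusted p of these genes was under 0.05 (limma). The 11 forebrain and midbrain genes had a median of -0.08, the 5 hindbrain genes of 0.07 and the 7 head mesenchyme genes of -0.03, against 0.06 for the 10 caudal and somitic factors. After quantile normalization the medians were -0.05, 0.12 and 0.0046 for the head lists in this order, and 0.02 for the 10 factors, so that the head mesenchyme median changed sign. The difference between these lists was not tested.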

How the data were processed

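RNA of 6 pools of E8.5 heads was measured on Affymetrix Gene 1.0 ST mouse arrays. The deposited values are probe set intensities. Per the submitters' processing notes, the authors ran RMA with Affymetrix Power Tools (version not given in the sources used here), and their comparison used Gene Array Analyzer. The values are linear, with a median per array between 58.1 and 62.9, and log2 was taken first. Groups and replicate numbers came from the sample titles. The 21789 probe sets with exactly 1 gene symbol were tested, of which 21698 took their symbol from RefSeq (GRCm38.p6) by gene number. Knockout and heterozygote pools entered lmFit and eBayes of limma 3.58.1, run in R 4.3.3, without covariates. Benjamini-Hochberg adjustment covered every tested probe set. A gene was read from its probe set with the highest mean. The scripts were tested on simulated data. The small number of pools limits the precision, and p-values reflect the spread among them. The paper calls the pools biological replicates.

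The members and gene lists were chosen with earlier results of these data known. Named genes are the members, Jarid1b, list genes at an unadjusted p under 0.05 or otherwise the highest and lowest of a list, and the 5 genes most like the member of widest range. Others were named after their values were seen: Osr1, Aldh1a2, Foxf1, Hoxb5 and Tbx5 beside Meox1, the marker genes Otx2, Msc, Myl7 and Hbb-bh1, Dll1 and Dll3 of the clock list, and Prm2, Sftpc, Smcp, Csn2 and Umod of the late genes. Hba-x and Alas2 of the blood list were also named after their values were seen. The blood, yolk sac and heart lists served to describe the pools. Heterozygote and knockout pools share replicate numbers, but across probe sets the deviations of same-numbered pools correlated at 0.00076, 0.11 and -0.013, so the numbers were not taken to pair them. Alternatives changed the normalization, filter, rows, variance model, weights or block, or left out a pool. Motifs were chosen after the promoters were seen. Of the listed trunk, head and other genes, those without a probe set of their own were not analysed here.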

Additional observations from a re-analysis of the deposited data

How the results depend on the processing

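Under the 15 alternatives, no member of the 10 had an adjusted p under 0.05 (limma), and Jarid1b stayed between -1.60 and -1.48. Tbx6 kept an unadjusted p under 0.05 in 15 of 15, at log2 fold changes from 0.17 to 0.26 and adjusted p-values from 0.295 to 0.626. The number of members higher at an unadjusted p under 0.05 was 2 without dim probe sets, which added Uncx and dropped Cdx4 and Meox2 from the test, and between 1 and 2 when a pool was left out, with Meox2 added without heterozygote replicate 1 and Uncx without heterozygote replicate 3. The number lower was between 0 and 1, with Tcf15 at -0.21 added without heterozygote replicate 3. The median of the members was 0.0199 after quantile normalization and 0.0179 after cyclic loess, and between 0.041 and 0.12 when a pool was left out, the highest without knockout replicate 1. Of 148 single values, none crossed an adjusted p of 0.05, 137 kept their sign and 11 changed it, the largest being Meox1 at 0.14 without knockout replicate 1. After quantile normalization these were Cdx2 (-0.0020), Mesp2 (-0.016) and Meox1 (0.0084), after cyclic loess the same 3 genes (-0.0020, -0.015 and 0.011), and with array weights Meox1 (0.00047). With a pool left out, Mesp2 ranged from -0.0033 to 0.077, Meox1 from -0.13 to 0.14 and Cdx4 from -0.031 to 0.13, lowest without knockout replicate 1, while Cdx1 (0.045 to 0.19), Cdx2 (0.0048 to 0.12), Uncx (0.093 to 0.20), Meox2 (0.040 to 0.21), Msgn1 (-0.098 to -0.029) and Tcf15 (-0.21 to -0.071) kept their sign. With the replicate number as a block, the members gave 1 higher and 0 lower value by unadjusted p, the median was 0.06, and no call changed. Over all probe sets, 1301 were higher and 1016 lower by unadjusted p, against 650 and 1131 without the dim ones, 1028 and 619 without heterozygote replicate 3, and 1184 and 664 without heterozygote replicate 2. The cause of these shifts was not tested. Members whose signal lies among genes of late or adult cells limit what the arrays can show.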

Other observations

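Beside the lists of the report, the 9 heart genes included 2 on the lower side at an unadjusted p under 0.05, where 4.66% of all probe sets lay. They were Hand2 with a log2 fold change of -0.24 and Tbx5 with -0.30, and the other 7 lay between -0.10 and 0.11. Among the 6 blood genes the embryonic globin Hbb-bh1 had the highest log2 fold change, 1.66, with 4.73, 8.87 and 6.14 in the knockout pools and 4.90, 4.41 and 5.43 in the heterozygote pools. Of the 6, Klf1, a factor of red cell precursors, was the only one with an unadjusted p under 0.05, at 0.26. Over all probe sets 5.97% lay on this higher side. Klf1 is among the 7263 dimmest probe sets, of which 761 were on the higher side. All 9 yolk sac endoderm genes were lowest in knockout replicate 3. The lipid carrier gene Apom was at 8.87 or more in the heterozygote pools and at 8.78, 9.01 and 7.35 in the knockout pools, a log2 fold change of -0.64, the lowest of that list, and Hnf4a had the highest, 0.0035. No adjusted p was under 0.05 (limma).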
